A study of Mus musculus with 6 samples.

Results

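Calpains are cytosolic cysteine proteases, most of them switched on by calcium, and calpastatin is their own inhibitor. Their transcripts were followed here in mouse LSK cells labelled null for serum response factor (SRF) and in control LSK cells. LSK cells are the lineage-negative, Sca1-positive, c-Kit-positive bone marrow fraction, which contains the hematopoietic stem cells and early progenitors. The genes described are Capn15, Capn1, Capn2, Capn5, Capn7, Capn10, Capns1 and Cast, and every probe set whose platform annotation names 1 of these genes and no other was taken. This gave 18 probe sets for 8 genes, out of 45037 non-control probe sets and 18193 genes with a probe set of their own. The gene family was chosen by the difference of Capn15 between these same SRF-null and control arrays, so the values of SRF-null against control cells are a description and carry no test.

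The SRF-null arrays, also labelled SRF KO, came from mice that were Srf flx/flx;Mx1-Cre, and the control arrays, labelled SRF wt, from Srf+/+;Mx1-Cre mice, both on C57BL/6. The Mx1-Cre transgene drives the recombinase from an interferon-inducible promoter, so it is not limited to LSK cells or to blood cells. Both genotypes, controls included, were given pIpC, a synthetic double-stranded RNA that induces interferon, as 3 intraperitoneal injections of 200 µg at 2-day intervals from 6 weeks of age, and were analysed 35 days after the last one. LSK cells were sorted from pooled animals, and 3 arrays were run per genotype. No label says whether the pools shared animals, so the errors measure only the spread between these arrays.

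The calpain family falls into conventional and atypical members. CAPN1 and CAPN2, the conventional calpains, are catalytic subunits that each pair with the small regulatory subunit CAPNS1, and calpastatin binds and blocks these calcium-loaded dimers. They cut proteins at a few places rather than degrading them, and talin, spectrin and integrin tails are among their best known substrates in adhesion and cell movement. Atypical members such as CAPN5, CAPN7, CAPN10 and CAPN15 lack the penta-EF-hand domain through which the conventional enzymes pair with the small subunit. SRF is a transcription factor of actin cytoskeleton and immediate early genes and binds a motif called the CArG box.

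Values are normalized log2 signals on a log2(intensity + 16) scale, which has a floor of 4, and group means carry the SD over n = 3 arrays. Differences are SRF-null minus control, with a standard error (SE) from the spread of both groups. The deposited arrays had median intensities of 200.5 to 292.1 and upper quartiles of 5024 to 5320, and 26.0% to 27.0% of probe sets lay under an intensity of 16. All 18 calpain and calpastatin probe sets were above 16 on every array, the lowest value being 64.4. The 3′ minus 5′ log2 signal, a sign of RNA quality, was 0.93 to 1.51 in SRF-null and 1.18 to 1.45 in control cells for Actb, and 0.67 to 1.16 in SRF-null and 0.97 to 1.20 in control cells for Gapdh. The brighter Srf probe set was at 12.60 ± 0.19 in SRF-null and 13.03 ± 0.02 in control cells (difference −0.42, limma adjusted p = 1), and the dimmer one was at 9.70 ± 0.38 in SRF-null and 9.60 ± 0.59 in control cells. The position of either probe set against the deleted segment of Srf is unknown here, so they do not measure the deletion. SRF-null replicate 1 had little Xist (5.03) and control replicate 2 little Kdm5d (4.0) and Eif2s3y (4.37), all sex-linked genes. The other 4 arrays had Xist at 15.13 or more and Kdm5d at 10.54 or more. For some genes, results are therefore also given without SRF-null replicate 1 and control replicate 2. Among the other 4 arrays Kdm5d was still higher in SRF-null cells, at 11.84 and 11.97, against 10.54 and 10.575 in control cells. Eif2s3y was at 14.175 and 14.5 in SRF-null and 14.045 and 13.06 in control cells. Leaving out the named arrays thus does not even out these genes between the genotypes.

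Capn15 was the member that stood lower in SRF-null cells, to about the same extent on 3 of its 4 probe sets. Capn15 encodes an atypical calpain with zinc finger motifs near its amino end, the mammalian relative of the Drosophila small optic lobes protein. On its brightest probe set, 1434416_a_at, the deposited intensities were 11976, 9645 and 13749 on SRF-null arrays 1 to 3, against 22636, 25327 and 24494 on control arrays 1 to 3. The normalized signals were 13.55, 13.26 and 13.77 in SRF-null cells and 14.48, 14.59 and 14.58 in control cells. Every SRF-null array lay below every control array, and the SRF-null arrays were more spread out. The group means were 13.53 ± 0.25 in SRF-null and 14.55 ± 0.06 in control cells, a difference of −1.02 (SE 0.15), which puts SRF-null cells at 49.2% of the control signal.

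A pair of further probe sets gave nearly the same picture. Probe set 1427785_x_at read 13.41, 13.23 and 13.57 in SRF-null cells and 14.30, 14.40 and 14.47 in control cells, a difference of −0.99 (SE 0.11) and 50.5% of control. Probe set 1434417_at read 11.19, 10.69 and 11.35 in SRF-null cells and 11.98, 12.35 and 12.25 in control cells, a difference of −1.12 (SE 0.23) and 46.1% of control. In both, SRF-null replicate 2 was the lowest array and the groups did not overlap. Probe sets 1434416_a_at and 1434417_at were designed from the same sequence record, and the _x_at suffix marks a design whose probes may also bind other transcripts, so these 3 are not independent measurements. Over the 6 arrays their profiles followed that of the brightest with Pearson's r of 0.995 for 1427785_x_at and 0.989 for 1434417_at, as a description. The remaining probe set, 1450817_at, was dim, at 6.26, 6.48 and 7.61 in SRF-null cells and 6.66, 7.08 and 7.66 in control cells. Its groups overlapped, its difference was −0.35 (SE 0.51; −0.77 to −0.09 over the fits without 1 array), and its r with the brightest was 0.494.

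**Figure D1:**
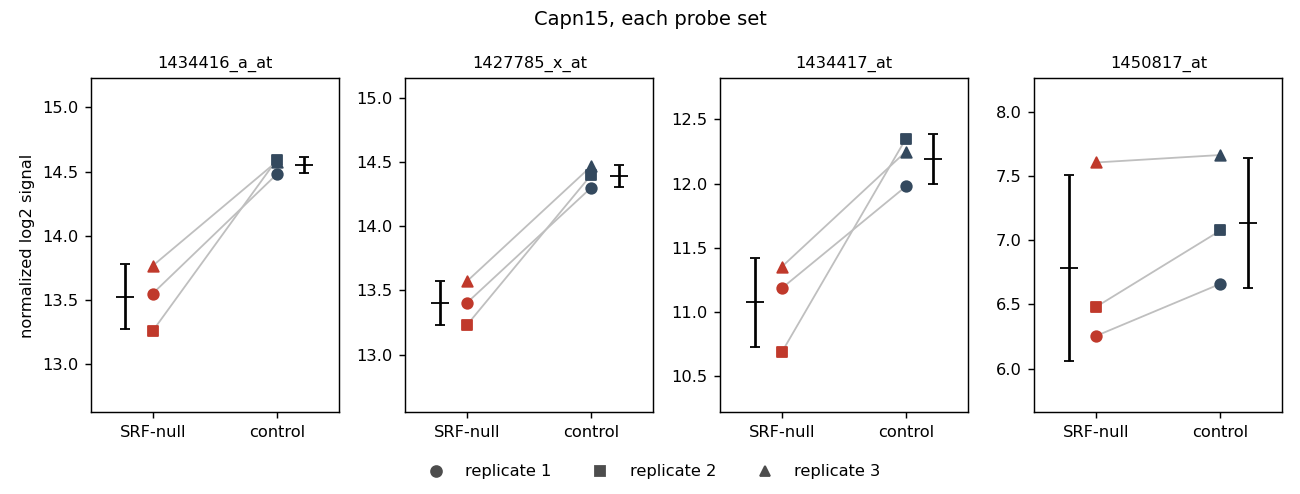
Normalized log2 signal (y axis) of the 4 Capn15 probe sets on each array, with SRF-null left of control, lines joining arrays of the same replicate number, and black bars showing the mean ± SD (n = 3). The panels cover equal log2 spans. On the 3 brighter probe sets every SRF-null array lies below every control array, and on 1450817_at the groups overlap.

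Same-numbered arrays of the genotypes deviated together, so pair differences are also given. For 1434416_a_at they were −0.93, −1.33 and −0.81 in pairs 1 to 3. The SRF-null array was the lower one in every pair, and the gap was widest in pair 2. Without control replicate 2 and SRF-null replicate 1 the difference of 1434416_a_at was −1.01, close to that over all arrays.

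Capn15 was set beside Srf at the level of the promoter, since Capn15 was the member with the widest difference and Srf the gene targeted for deletion. The stretches shown run from 250 bases before to 50 after an annotated start, from RefSeq on GRCm38.p6. Capitals in Srf mark its CArG boxes, and capitals in Capn15, which has none here, mark the stretch that is a single letter away from one. The Capn15 stretch, 1 of the 3 listed for the gene, is chr17:25985747-25986046 and the Srf stretch chr17:46556113-46556412, both on the minus strand.
Capn15: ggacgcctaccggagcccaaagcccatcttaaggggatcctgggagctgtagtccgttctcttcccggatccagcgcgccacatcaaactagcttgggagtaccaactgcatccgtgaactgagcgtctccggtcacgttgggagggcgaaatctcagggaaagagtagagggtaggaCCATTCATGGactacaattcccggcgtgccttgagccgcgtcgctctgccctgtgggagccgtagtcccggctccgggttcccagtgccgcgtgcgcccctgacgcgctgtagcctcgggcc
Srf: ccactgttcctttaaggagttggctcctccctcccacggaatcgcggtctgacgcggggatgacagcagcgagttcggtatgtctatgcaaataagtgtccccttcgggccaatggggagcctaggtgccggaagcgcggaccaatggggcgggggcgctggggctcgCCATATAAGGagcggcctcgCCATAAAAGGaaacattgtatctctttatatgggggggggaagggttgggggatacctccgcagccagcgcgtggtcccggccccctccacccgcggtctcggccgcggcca

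The Srf stretch holds 2 CArG boxes and the Capn15 stretch 0. The CArG box reads the same on both strands, so a single search covers both. Of 32851 promoter stretches from RefSeq, 535 (1.63%) held at least 1 CArG box, and 6527 (19.9%) held a stretch a single letter away. The table matched 7 of the 8 genes, with 13 stretches in all, 3 of them for Capn15. Of these 13 stretches 0 held a CArG box and 6 held a near match. Among these 6, a pair of Capn15 stretches overlap and share the same near match, CCATTCATGG, so that site is counted more than once. A near match is a description of the letters, and its absence or presence shows nothing about binding of SRF.

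Capn15 lies on mouse chromosome 17, as does Srf, with 443 steps between them in the order of protein-coding genes of the RefSeq table (GRCm38.p6, used for names and order). Of the 10 measured protein-coding genes on either side of Capn15, chosen after their values had been seen, 5 were lower and 1 was higher in SRF-null cells with no overlap of the groups, and 14 overlapped. Over all 18193 genes, 10.6% had groups that did not overlap in either direction. The nearest measured gene on the higher-coordinate side, Rab11fip3, which encodes a Rab11 effector of recycling endosomes, averaged 8.54 in SRF-null and 9.43 in control cells, a difference of −0.88 (limma adjusted p = 0.982). Pgap6, the fourth on that side, averaged 9.91 in SRF-null and 10.77 in control cells, a difference of −0.86 (limma adjusted p = 0.898). Neither passed the threshold. Between them lie Decr2 (0.04) and Nme4 (−0.05), whose groups overlapped. The median difference of the 20 neighbours was −0.14, against −0.01 over all genes. Whether DNA sequence carried along with the modified Srf allele differs at the probes of these chromosome 17 genes was not tested.

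**Figure D2:**
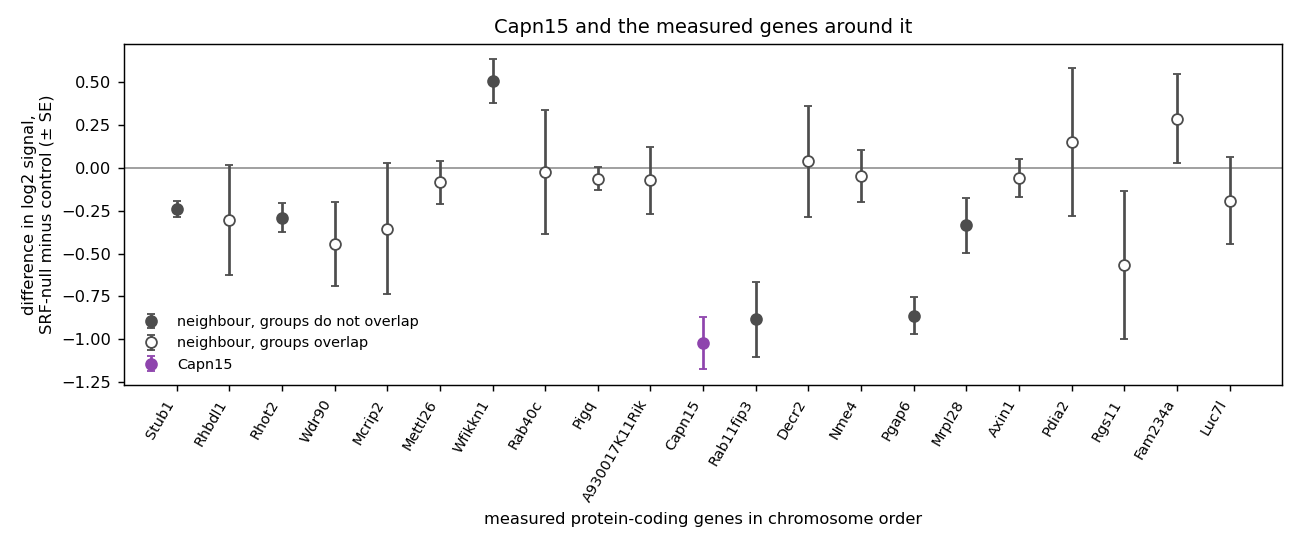
Difference in log2 signal, SRF-null minus control (y axis, ± SE from n = 3 arrays per group), of Capn15 and the 10 measured protein-coding genes on each side in chromosome order, each by its brightest probe set. Filled points have groups that do not overlap. Capn15 (−1.02), Rab11fip3 (−0.88) and Pgap6 (−0.86) lie lowest, with genes near 0 between them.

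The genes whose 6-array profile was most like that of Capn15 1434416_a_at were ranked among 10775 genes above the median level. They were Aldoa (r = 0.994), the glycolytic enzyme aldolase A, Mcm7 (0.989), a subunit of the replicative helicase, Mov10 (0.988), an RNA helicase, Rbck1 (0.988), part of the linear ubiquitin ligase complex, and Gtf2ird2 (0.987). Their genes lie on chromosomes 7, 5, 3, 2 and 5. All 5 were lower on every SRF-null array, but by less than Capn15, with differences of −0.15, −0.14, −0.54, −0.39 and −0.41. With 6 arrays in 2 groups such a ranking mostly picks genes with a tight genotype difference, and it is given as a description.

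The conventional calpains and their partners showed small differences that mostly fell within the spread of the arrays. Capn1, the catalytic subunit of µ-calpain, read 11.51, 12.04 and 11.89 on 1417228_at in SRF-null cells, against 11.17, 11.61 and 11.85 in control cells. The groups overlapped, with a difference of 0.27 (SE 0.25). The pair differences were 0.34, 0.43 and 0.04, all in the same direction, and without control replicate 1, the array with the least Capn1, the difference was 0.08. Without control replicate 2 and SRF-null replicate 1 it was 0.46, and the groups no longer overlapped. The dimmer Capn1 probe set, 1417229_at, differed by 0.08 (SE 0.24), and its pairs pointed in both directions.

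Capn2, the catalytic subunit of m-calpain, read 13.30, 13.83 and 13.48 in SRF-null cells and 13.62, 13.69 and 13.46 in control cells on its only probe set. SRF-null arrays held both the lowest and the highest value, and the difference was −0.05 (SE 0.17). Without control replicate 2 and SRF-null replicate 1 the difference was 0.12.

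Capns1, the small subunit that both conventional enzymes need, read 15.75, 15.94 and 15.92 in SRF-null cells and 16.004, 15.98 and 15.96 in control cells. The SRF-null arrays were all below the controls, but by little, with a difference of −0.11 (SE 0.06) or 92.7% of control. SRF-null replicate 1 made up most of this, since the difference without it was −0.05. When the arrays were centred on their medians instead of quantile normalized, the groups overlapped.

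Calpastatin, encoded by Cast, has 3 probe sets, which did not share a direction. The brightest, 1435972_at, read 15.41, 15.55 and 15.47 in SRF-null cells and 15.40, 15.48 and 15.38 in control cells, a difference of 0.06 (SE 0.05). Probe set 1451413_at read 13.75, 13.97 and 13.51 in SRF-null cells and 13.66, 13.59 and 13.44 in control cells, a difference of 0.18 (SE 0.15). On these probe sets each SRF-null array exceeded its same-numbered control, although the groups overlapped. Without control replicate 2 and SRF-null replicate 1 the difference of 1435972_at was 0.12, and its groups no longer overlapped. Probe set 1426098_a_at read 11.48, 11.20 and 11.55 in SRF-null cells and 11.41, 11.43 and 11.86 in control cells, a difference of −0.15 (SE 0.18). Cast is transcribed from several promoters and spliced in many forms, and which forms each probe set reads was not determined here. The signals of enzyme, small subunit and inhibitor thus differed between genotypes by 0.27 or less in size on every probe set of Capn1, Capn2, Capns1 and Cast.

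**Figure D3:**
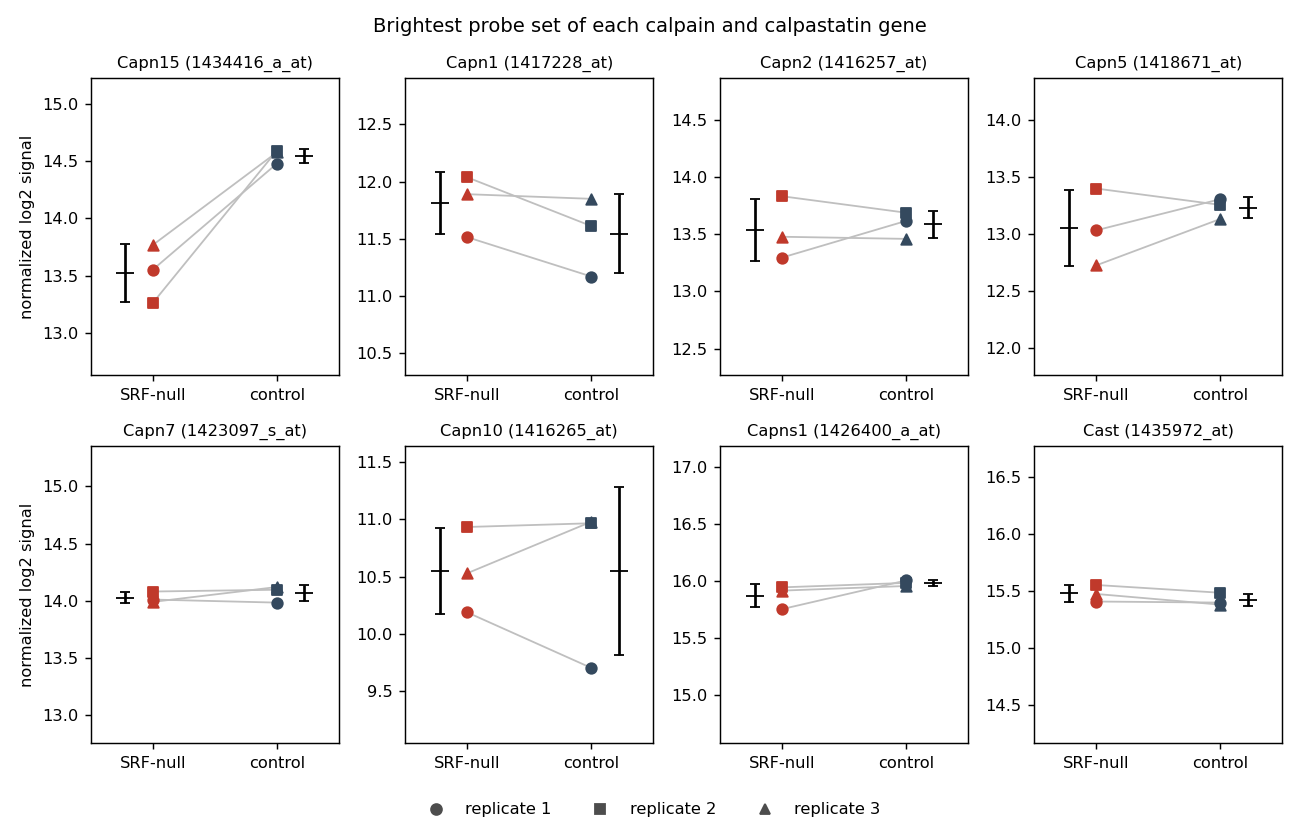
Normalized log2 signal (y axis, equal spans) of the brightest probe set of each of the 8 genes on each array, with SRF-null left of control, lines joining arrays of the same replicate number, and black bars showing the mean ± SD (n = 3). Capn15 shows a gap between the groups, Capns1 a narrow one, and the other 6 genes overlap.

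Among the atypical calpains other than Capn15, no probe set had groups that lay apart. Capn5, a relative of the nematode sex determination protease TRA-3, read 13.03, 13.40 and 12.73 on 1418671_at in SRF-null cells and 13.31, 13.26 and 13.13 in control cells. SRF-null arrays spread over both sides of the controls, and the difference was −0.18 (SE 0.20). Its dimmer probe set, 1449165_at, ranged from 7.27 to 8.46 in SRF-null and 7.12 to 8.82 in control cells, a difference of 0.11 (SE 0.63).

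Capn7, which carries MIT domains that bind ESCRT-III proteins of membrane scission, differed little between genotypes. It read 14.01, 14.08 and 13.99 on 1423097_s_at in SRF-null cells and 13.98, 14.10 and 14.12 in control cells, a difference of −0.04 (SE 0.05). Probe set 1423096_at differed by −0.04 (SE 0.07). The dimmest, 1423098_at, read 11.37, 11.39 and 11.70 in SRF-null cells and 11.55, 11.73 and 11.80 in control cells, lower in each pair but with overlapping groups (difference −0.21, SE 0.13). All 3 Capn7 probe sets were designed from the same sequence record.

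Capn10, known from human genetics as a candidate gene of type 2 diabetes, varied more between arrays than between genotypes. It read 10.19, 10.93 and 10.53 on 1416265_at in SRF-null cells and 9.70, 10.97 and 10.98 in control cells, a difference of 0.00 (SE 0.48), or 0.39 without control replicate 2 and SRF-null replicate 1. Replicate 1 was the lowest array in both genotypes. The dimmer probe set, 1452959_a_at, averaged 7.84 ± 0.46 in SRF-null and 7.84 ± 0.34 in control cells, and replicate 1 was again lowest in both. Without control replicate 2 and SRF-null replicate 1 the difference of this probe set was 0.28.

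Across the 18 probe sets 4 were lower in SRF-null cells without overlap, 3 of Capn15 and 1 of Capns1, where 4.5% of all probe sets were (9.24% in either direction). None (0) was higher without overlap, where 4.74% of all probe sets were. In all 3 number pairs 6 were lower, where 14.2% of all probe sets were, and 3 were higher, where 14% of all probe sets were. The median difference was −0.05 over the 18 probe sets and 0.00 over all probe sets. The 14 probe sets of genes other than Capn15 lay between −0.21 and 0.27, with a median of −0.02. Since Capn15 brought the list to attention, these counts are a description.

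**Figure D4:**
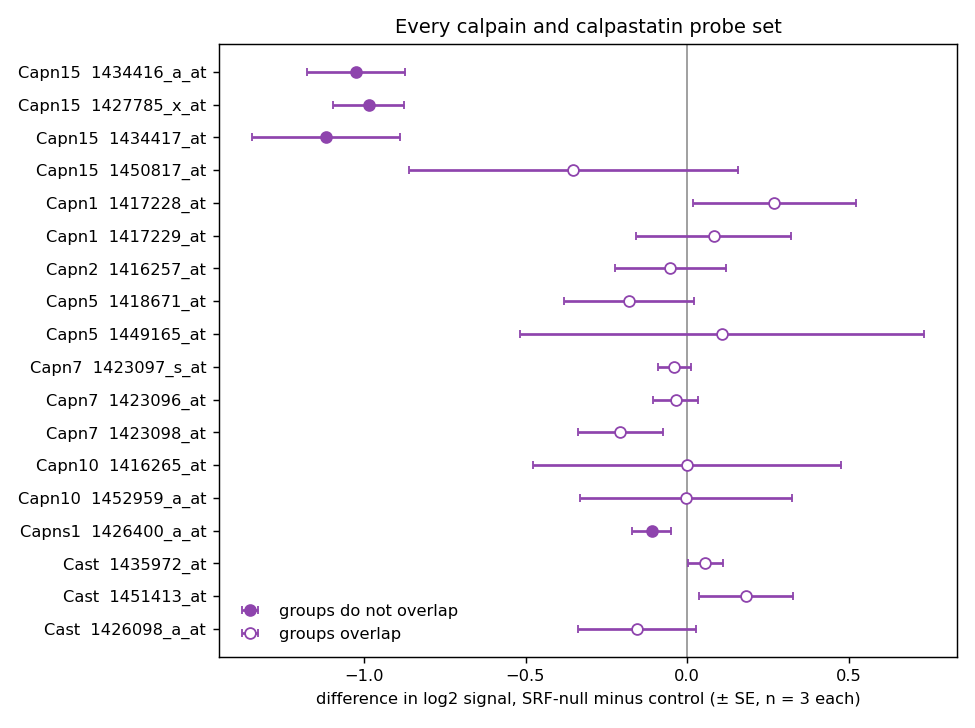
Difference in log2 signal, SRF-null minus control (x axis, ± SE, n = 3 arrays per group), for all 18 calpain and calpastatin probe sets. Filled points have groups that do not overlap. The 3 brighter Capn15 probe sets lie near −1, and the 14 probe sets of the other genes between −0.21 and 0.27.

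The rest of the calpain family was mostly dim in these cells. Of the 9 further calpain genes listed 8 were measured by a probe set of their own, and Capn14 was not analysed here. The brightest probe set lay under an intensity of 16 on every array for 4 of the 8 genes and above 16 on every array for 2, Capn3 and Capn12. By limma over all probe sets 0 of the 8 passed an adjusted p of 0.05 in either direction, and 4 were higher and 4 lower in SRF-null cells. Capn3, known as the muscle calpain, read 10.38, 10.81 and 10.18 on its brighter probe set in SRF-null cells and 9.62, 10.05 and 10.01 in control cells. The groups did not overlap, with a difference of 0.56 (limma SE 0.22, adjusted p = 1), and the dimmer Capn3 probe set differed by 0.49 (limma SE 0.19), also without overlap. Capn12 differed by 0.09 (limma SE 0.24). Capn11 was at 8.005 on SRF-null replicate 2 and at the floor of the scale on the other 5 arrays, so its mean difference rests on that array. Capn6 (−0.23) and Capn9 (−0.22) were near the floor in both genotypes.

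Known substrates and partners of calpains were then read from lists drawn from general knowledge of the family. Over all 45037 probe sets, 0 (0%) passed an adjusted p of 0.05 by limma, so no list held a gene that passed, and 1975 (4.39%) had an unadjusted p under 0.05. With the replicate number as a block 0 passed as well, and 3189 had an unadjusted p under 0.05. Without the block that count was 3428 without control replicate 1, and 1426 to 3428 over the fits without 1 array. Taking 1 probe set per gene, 901 of 18193 genes (4.95%) had an unadjusted p under 0.05.

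Of 23 measured substrates of the cytoskeleton and of adhesion (25 listed), 11 were higher and 12 lower in SRF-null cells, with a median of −0.01, and 0 passed in either direction. The 4 with the smallest p were Itgb2 (0.83, limma SE 0.22), the beta chain of the leukocyte integrins, Itgb3 (−0.71, limma SE 0.27), the beta chain of the platelet integrin, the actin crosslinker gene Actn1 (0.30) and Vcl (0.18), which encodes vinculin. Their adjusted p was 1 in each case. Over the mean of all their probe sets Itgb3 differed by −0.34, Actn1 by 0.10 and Vcl by −0.0094. Without SRF-null replicate 2 or control replicate 1 Actn1 differed by 0.18 or 0.19. Itgb2 read 12.41, 12.52 and 12.12 in SRF-null cells and 11.31, 11.335 and 11.92 in control cells, so every SRF-null array lay above every control array. On its brightest probe set Vcl was also higher without overlap, and the groups of Itgb3 and Actn1 overlapped. Of the 23 genes 2 were thus higher and 0 lower without overlap, where 10.6% of all genes lay apart in either direction. Itgb2 and Itgb3 had differences of opposite sign, and Itgb1, another integrin chain of the list, differed by 0.09 with overlapping groups.

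Of 21 measured substrates in signalling and cell death (25 listed), 10 were higher and 11 lower, with a median of −0.04, and 0 passed. Cabin1, an inhibitor of calcineurin, read 12.72, 12.40 and 12.33 in SRF-null cells and 13.31, 13.18 and 12.98 in control cells, lower on every SRF-null array (difference −0.67, limma SE 0.17, adjusted p = 0.999). Over the mean of its 3 probe sets the difference was −0.20. The others with the smallest p were the kinase gene Prkca (0.40), the caspase gene Casp12 (−0.62) and the immediate early gene Fos (3.10, limma SE 1.72). Fos spanned 9.57 to 15.33 in SRF-null and 7.94 to 11.78 in control cells, so its large mean difference came with a large spread, and without SRF-null replicate 2 it was 1.61. Over the mean of its probe sets Prkca differed by 0.22, and without control replicate 2 Casp12 differed by −0.39.

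The 9 penta-EF-hand relatives and ESCRT partners were all measured, with 1 higher, 8 lower and 0 passing, and a median of −0.04. Over all 18193 genes 9344 were lower in SRF-null cells, and 991 were lower without overlap. Gca (−0.42), which encodes grancalcin, and Pef1 (−0.24), which encodes peflin, both of the penta-EF-hand family, were lower without overlap, and Pdcd6 (−0.17) and Chmp1a (−0.10) overlapped between the groups. Without SRF-null replicate 1 the difference of Gca was −0.27, and over the mean of its probe sets it was −0.24. Without SRF-null replicate 2 that of Pdcd6 was −0.09, and that of Chmp1a ranged from −0.23 to −0.02 over the fits without 1 array. Lysosomal cysteine proteases and cystatins served as a set of proteases outside the calpain system. Of 16 measured (18 listed) 10 were higher and 6 lower, with a median of 0.08 and 0 passing. Cathepsin S, from Ctss, read 15.09, 15.29 and 15.58 in SRF-null cells and 14.38, 14.57 and 14.78 in control cells (difference 0.75, limma SE 0.19, adjusted p = 0.999). The cystatin gene Cst7 differed by 1.51 (limma SE 0.44, adjusted p = 1), Ctsf by −0.66 (−0.30 over the mean of its probe sets) and Ctsw by 0.49. Over all 18193 genes the median difference was −0.01.

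**Figure D5:**
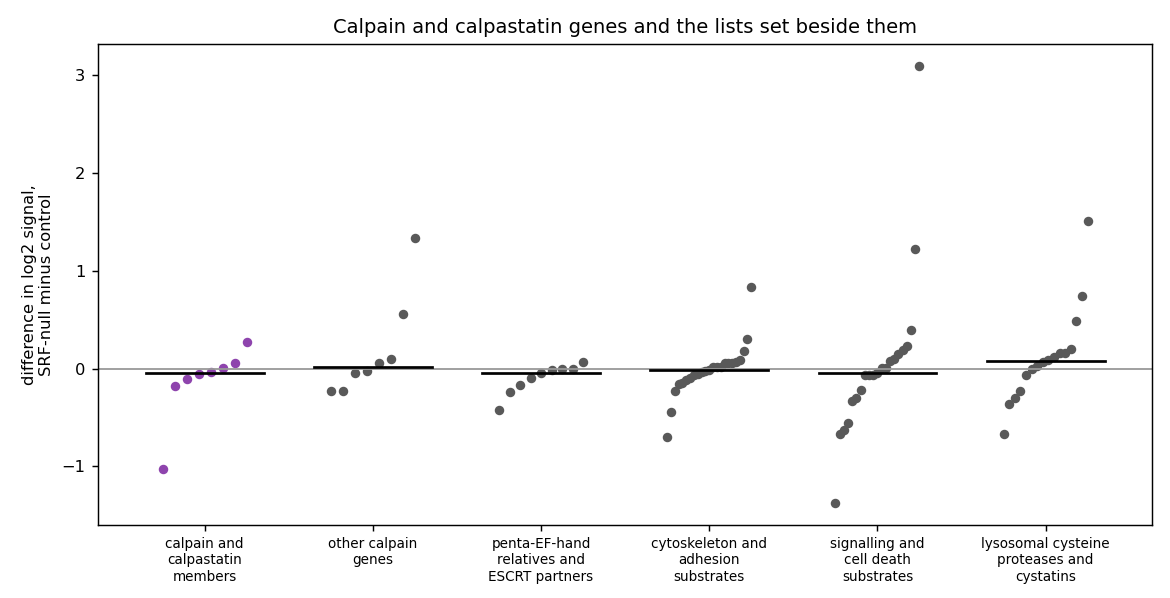
Difference in log2 signal, SRF-null minus control (y axis), of each gene by its brightest probe set, for the 8 calpain and calpastatin genes and the 5 lists set beside them; bars are medians. The medians of the 5 lists lie between −0.04 and 0.08, and Capn15 at −1.02 stands apart from the other 7 members.

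Of 8 LSK markers 6 were measured, 3 higher and 3 lower in SRF-null cells, with 0 lying apart between the groups. Kit was at 14.89 in SRF-null and 15.09 in control cells, Cd34 at 16.85 in SRF-null and 16.74 in control cells, and Flt3 at 15.43 in SRF-null and 15.31 in control cells. Procr was at 14.56 in SRF-null and 14.74 in control cells, Cd48 at 16.02 in SRF-null and 15.86 in control cells, and Ly6a, which encodes Sca1, was not analysed here. Slamf1, a marker of stem cells within this fraction, read 11.61, 10.73 and 9.18 in SRF-null cells and 11.60, 12.33 and 11.80 in control cells. Its groups overlapped, and its difference of −1.40 (limma SE 0.62, adjusted p = 1) exceeded that of Capn15 in size.

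Of 8 T and NK cell markers 7 were higher in SRF-null cells, 4 of them without overlap, where 5.16% of all genes were higher without overlap. None (0) passed by limma, the smallest adjusted p being 0.898. Their summed normalized intensity was 78913.8 to 86680.5 in SRF-null and 56919.5 to 67542.3 in control cells. Nkg7 made up 94.8% or more of this sum on every array, and without it the sums were 2824 to 4333 in SRF-null and 923.5 to 1631 in control cells. The T cell genes Cd3d and Cd3g lay near the floor, at 4.76 and 4.46 in SRF-null and 4.56 and 4.48 in control cells. The T cell gene Cd3e was at 6.48 in SRF-null and 5.05 in control cells, with overlapping groups. Cd4 was at 8.99 in SRF-null and 7.88 in control cells, without overlap. Cd8a was at 6.00 in SRF-null and 5.65 in control cells, with overlapping groups. Of 9 monocyte and macrophage markers 8 were higher, 2 of them without overlap, with a median difference of 0.78. These 2 were Mrc1 (2.08, limma SE 0.55), the mannose receptor, and C1qa (1.70, limma SE 0.56), a complement subunit, both with an adjusted p of 1. The sums of the 9 markers were 105265 to 109476 in SRF-null and 95122.4 to 110230 in control cells, mostly from Lyz2. Without Lyz2, which was at 16.14 in SRF-null and 16.21 in control cells, they were 29668.5 to 39532.4 in SRF-null and 11479.4 to 33119.3 in control cells. Of 6 stromal and endothelial markers 5 were higher, 1 of them, Pdgfrb, without overlap, and Col1a1 was at 5.41 in SRF-null and 5.55 in control cells. Their sums were 21811.5 to 31730.3 in SRF-null and 15707.6 to 18990 in control cells, and without Pdgfrb, which made up 79.6% or more, they were 2940 to 3827 in SRF-null and 2980 to 3291 in control cells, which overlap. The sums of the other 6 lineage lists overlapped between genotypes. Higher in SRF-null cells were 5 of 5 measured B cell, 4 of 4 erythroid and 4 of 4 megakaryocyte markers. So were 4 of 5 dendritic, 3 of 4 mast cell and basophil and 4 of 7 granulocyte markers, where 8849 of 18193 genes were. Median differences were 0.14, 0.12, 0.60, 0.72, 0.74 and 0.08 in that order, against 0.75 for T and NK cells. Of the erythroid markers Alas2 and Hba-a1 lay near the floor, at 4.47 and 4.39 in SRF-null and 4.43 and 4.39 in control cells. Without overlap 1 B cell marker and 1 megakaryocyte marker were higher, and the mast cell gene Cma1 was lower (−1.68). This B cell marker, Pax5, was also near the floor, at 4.50 in SRF-null and 4.38 in control cells. The part of these cells in the Capn15 difference was not tested, and in such sorted pools fewer cells of a type and less RNA per cell cannot be told apart.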

How the data were processed

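Each array contributes 1 deposited intensity per probe set, linear and never negative, a unit read from the values. How the authors summarised, background-corrected and scaled these intensities is not stated in the labels. Per the labels' protocols, NuGEN kits were used to amplify and biotin-label 30 ng of RNA for Affymetrix arrays. The array type in the study's description and in the platform annotation differ, and the table was used as it stands. Columns were matched to samples by accession.

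Deposited intensities of the 45037 non-control probe sets were converted to log2(value + 16) and quantile normalized, since the arrays' median log2 values differed by 0.51. The genotypes were compared in limma 3.58.1 (R 4.3.3) by lmFit and eBayes, two-sided, with genotype alone in the model, Benjamini-Hochberg adjustment over all probe sets and a threshold of 0.05. The fit was tested on simulated data. No filter on dim probe sets was applied, and precision is limited by having 6 arrays. In lists each gene is read by its probe set with the highest mean among those naming it alone. Named are all members, Srf, up to 4 genes of each list by smallest p, any that passed, and the 5 genes most like Capn15. The members and lists were chosen with earlier results of these data known.

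Replicates 1 to 3 carry the same numbers in both genotypes. After subtracting group means, equal-numbered arrays correlated at 0.473, 0.210 and 0.427 across probe sets. Each was above 0.1, so the numbers were taken to pair the arrays. Unequal ones correlated at −0.424 to 0.014. Subtracting group means itself pushes these down when the equal-numbered ones are positive, so they are no separate support. Figures were drawn with matplotlib 3.10.9.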

Additional observations from a re-analysis of the deposited data

How the results depend on the processing

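Alternatives changed the normalization (median centring or none), the offset (1 or 64), the filter, the variance model, the choice of probe set per gene, the pairing and the arrays used. The difference of Capn15 1434416_a_at was negative in all 16, between −1.14 and −0.87, and between −1.14 and −0.89 when 1 array was left out. The number of probe sets past the threshold was 0, except 1 after median centring (Mocs1) and 1 without control replicate 2 (Ccnb1ip1), so 0 to 1 over the fits without 1 array. With the replicate block it was 0 and no call changed. The number of calpain and calpastatin probe sets without overlap was 4 to 7 lower, the highest without control replicate 1, and 0 to 1 higher when 1 array was left out, with 2 higher when control replicate 2 and SRF-null replicate 1 were both left out. These higher ones were the brightest probe sets of Capn1 and Cast. With fewer arrays groups separate more easily. Under median centring 3 were lower, all of Capn15, and the groups of Capns1 overlapped. Vcl turned to −0.0094 with the mean of all its probe sets and Chmp1a to 0.0074 without both of those arrays, and the cause was not tested. In the lists 0 genes passed in any of these fits. Signals of members with small differences changed sign between alternatives, among them Capn2 (−0.20 to 0.12) and Capn10 1416265_at (−0.43 to 0.39). No detection calls were used, so the dim probe sets of Capn15, Capn1, Capn5 and Capn10 are the least certain.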
